A study of Mus musculus with 6 samples.

Results

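The annexins are a family of proteins that bind acidic phospholipids at the inner face of membranes when cytosolic calcium rises. Each has a core of repeated annexin domains, which carry the calcium sites, and an N-terminal tail that differs between members and recruits partners such as S100 proteins. They are known for membrane repair, vesicle traffic, exocytosis and the organisation of membrane lipids. In the brain, members are described in glia, neurons, vessels and infiltrating cells. Transcripts of 8 members, Anxa1, Anxa2, Anxa3, Anxa4, Anxa5, Anxa6, Anxa7 and Anxa11, were taken by symbol from the 17006 genes listed for every library.

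Bulk RNA sequencing was done on primary neural stem cells of the subventricular zone, the germinal layer beside the lateral ventricles, kept in proliferation medium. The aged cells came from C57BL/6 mice of 15 to 18 months and the young cells from C57BL/6 mice of 2 months, with 3 libraries per age and no transgene or treatment in either. Tissue of 5 mice was pooled before dissociation, and nothing states that the libraries of an age are separate cultures, so p-values measure the spread between these libraries, which may be technical. Values are FPKM, fragments per kilobase of transcript scaled to library size, which allows levels to be set side by side between genes. Judged from the steps between low values, each library held some 5297000 to 5436000 counted reads. Progenitor markers were high, with the sum of Sox2, Nes, Fabp7, Vim, Egfr and Slc1a3 at 4923 to 5101 FPKM in aged and 5007 to 5177 FPKM in young libraries.

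The members were chosen by their FPKM levels and their difference between the ages in these same libraries. Their changes and adjusted p-values are therefore a description of where they stand among all genes. They are not independent evidence about the family.

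To show how alike the paralogs are at the level that reads sample, the stretch of 60 coding bases around the first in-frame match to GGNNNNGGNACN is given for each member, 5′ to 3′. This motif encodes a glycine, any residue, a glycine and a threonine, the pattern of the calcium-binding loop of annexin repeats, and is in capitals. Sequences are from GENCODE vM21 transcripts on GRCm38, read on the coding strand only.
Anxa1: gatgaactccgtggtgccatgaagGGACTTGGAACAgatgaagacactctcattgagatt
Anxa2: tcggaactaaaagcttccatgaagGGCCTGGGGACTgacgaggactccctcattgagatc
Anxa3: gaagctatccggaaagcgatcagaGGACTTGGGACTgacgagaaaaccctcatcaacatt
Anxa4: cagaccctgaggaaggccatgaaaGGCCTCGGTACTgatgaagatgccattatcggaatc
Anxa5: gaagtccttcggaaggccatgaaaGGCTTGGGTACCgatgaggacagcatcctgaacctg
Anxa6: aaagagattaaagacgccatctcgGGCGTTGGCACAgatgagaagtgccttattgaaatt
Anxa7: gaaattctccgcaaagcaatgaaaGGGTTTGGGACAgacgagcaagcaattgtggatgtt
Anxa11: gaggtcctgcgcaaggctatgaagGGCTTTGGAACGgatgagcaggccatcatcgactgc

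The stretches begin at coding base 361 in Anxa1, 334 in Anxa2, 73 in Anxa3, 61 in Anxa4, 58 in Anxa5, 295 in Anxa6, 499 in Anxa7 and 613 in Anxa11, so they need not lie in the same repeat. The coding sequence held 5 matches in Anxa6, which has a duplicated core and a coding length of 2019 bases, and 3 in Anxa3, Anxa4, Anxa5, Anxa7 and Anxa11. Anxa1 and Anxa2 held 2 each. Of 21739 mouse coding sequences, the longest for each gene, 13.3% held at least 1 match and 0.42% at least 3. Between members, coding sequences were 57.4% to 64.1% identical over 28 pairs, lowest for Anxa2 with Anxa7 and highest for Anxa7 with Anxa11.

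No member transcript shared a run of 31 bases with another member. The transcripts of Anxa1, Anxa2, Anxa3, Anxa5, Anxa6 and Anxa7 shared 0 such runs with any other annotated gene. Anxa11 shared 30.29% of its 2364 runs with other genes, 627 of them with the pseudogene Gm2260, and 113 of its exon bases overlap the antisense gene Anxa11os, so its level is uncertain. Anxa4 shared 2.43% of its runs, and 75 of its exon bases overlap the opposite-strand gene Gm44036. The strand setting of the authors' counting is not given in the sources used here.

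Levels fell into an abundant and a low set of 4 members each. Anxa6, Anxa5, Anxa3 and Anxa2 made up 97.1% to 97.9% of the summed annexin FPKM in aged and 97.1% to 98.5% in young libraries. Anxa6 was the most abundant member in every library. The order of the next members differed with age.

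**Figure D1:**
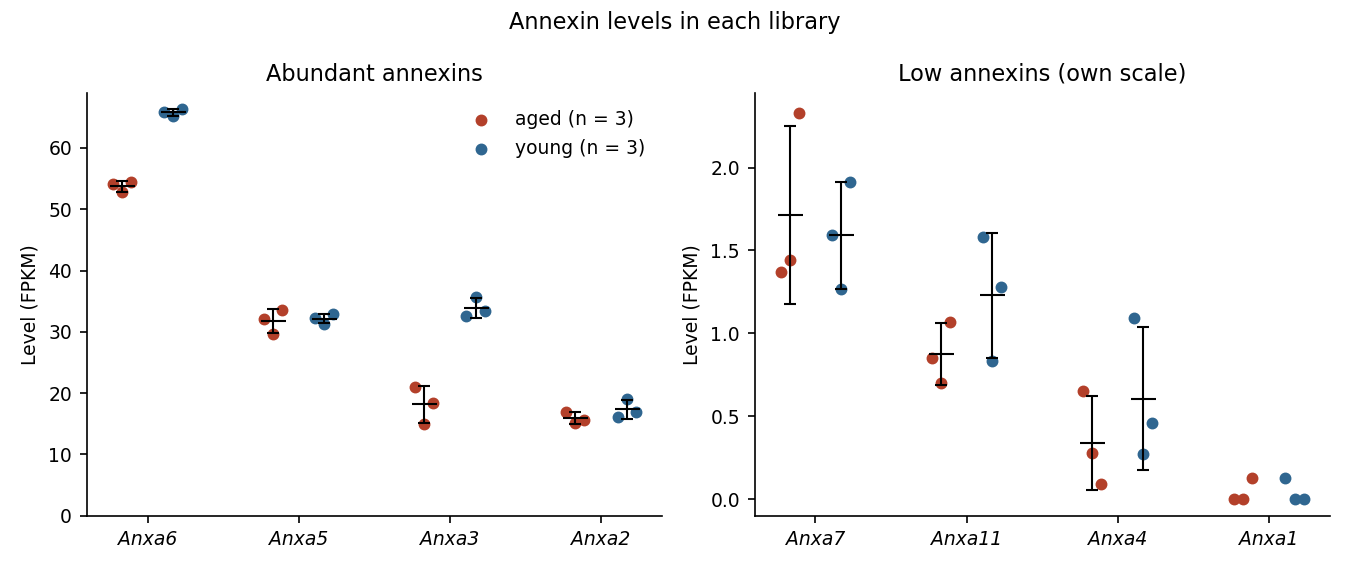
FPKM of each annexin in each library, with aged libraries in red left of young libraries in blue. Points are libraries, bars the mean and SD (n = 3 per age, no bar for Anxa1), and the 4 low members have their own scale. Anxa6 and Anxa3 lie lower in all 3 aged libraries than in any young library, and the other members overlap between the ages.

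In aged libraries the order by mean FPKM was Anxa6 (53.8), Anxa5 (31.8), Anxa3 (18.2), Anxa2 (15.9), Anxa7 (1.71), Anxa11 (0.873), Anxa4 (0.340) and Anxa1 (0.0433). Ranges of neighbours in that order overlapped for Anxa3 with Anxa2 and for Anxa4 with Anxa1. In young libraries it was Anxa6 (65.8), Anxa3 (33.9), Anxa5 (32.2), Anxa2 (17.3), Anxa7 (1.59), Anxa11 (1.23), Anxa4 (0.607) and Anxa1 (0.0433). There the ranges overlapped for Anxa3 with Anxa5, Anxa7 with Anxa11 and Anxa11 with Anxa4. Anxa3 was above Anxa5 within each of the 3 young libraries and under it in each of the 3 aged ones, and in aged libraries it was above Anxa2 in 2 of 3.

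Of the 8 members, 6 had a mean of at least 1 FPKM and entered a limma fit over 11912 genes. Of these 6, 2 fell (Anxa3 and Anxa6), 0 rose and 4 did not pass an adjusted p under 0.05. Over all tested genes 0.722% were called, 0.395% as lower and 0.327% as higher in aged libraries. The groups of aged and young libraries did not overlap for the same 2 members, while 17.6% of all tested genes had groups that did not overlap, 8.58% with the aged libraries lower. The median log2 change was -0.18 over the 6 members and 0.003 over all tested genes.

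Anxa3 (gene 11745, mm10 chr5:96793385-96845968, plus strand, 13 exons) encodes an annexin that in human neutrophils associates with granules and is described in microglia of rats. It was at 21.06, 15.03 and 18.41 FPKM in aged libraries 1, 2 and 3. In young libraries 1, 2 and 3 it was at 32.62, 35.73 and 33.45 FPKM. The highest aged library lay well under the lowest young library. Anxa3 averaged 18.2 ± 3.02 FPKM in aged and 33.9 ± 1.61 FPKM in young libraries (SD, n = 3 each), a ratio of 0.535. On the scale of log2(FPKM + 1) aged minus young was -0.88 ± 0.105 (SE; limma adjusted p = 0.0107), and 0.495% of tested genes had a larger absolute change. These levels correspond to about 154.2 reads per aged library and 294.1 per young library.

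The spread of Anxa3 among aged libraries, 16.6% of the mean, was wider than the 8.05% that read sampling alone gives at that depth. Among young libraries it was 4.75%, against 5.83% from sampling. Aged library 2 held the lowest value. With any 1 of the 6 libraries removed Anxa3 still passed, with adjusted p from 0.00574 to 0.0459. It was lost without limma's trend (0.0807).

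Anxa6 (gene 11749, chr11:54978953-55033471, minus strand, 26 exons) encodes the annexin with a duplicated core, which acts in endosome and cholesterol traffic and in membrane repair. It was at 54.07, 52.76 and 54.50 FPKM in aged libraries 1, 2 and 3, against 65.82, 65.29 and 66.32 FPKM in young libraries 1, 2 and 3. The fall was small and uniform, with a gap between the groups several times wider than the range within either. Anxa6 averaged 53.8 ± 0.906 FPKM in aged and 65.8 ± 0.515 FPKM in young libraries (SD, n = 3 each), a ratio of 0.817. The log2 change came to -0.29 ± 0.036 (SE; limma adjusted p = 0.0114), and 5.67% of tested genes had a larger absolute change.

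Anxa6 had about 709.4 reads per aged and 886.8 per young library. Its spread, 1.68% of the mean in aged and 0.783% in young libraries, was below the 3.75% and 3.36% that read sampling gives at these depths. The call was lost without young library 1 (0.0536), without young library 3 (0.0582) and without limma's trend (0.0818). Fewer cells of a type and less RNA per cell cannot be told apart in bulk libraries, for Anxa6 as for Anxa3.

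**Figure D2:**
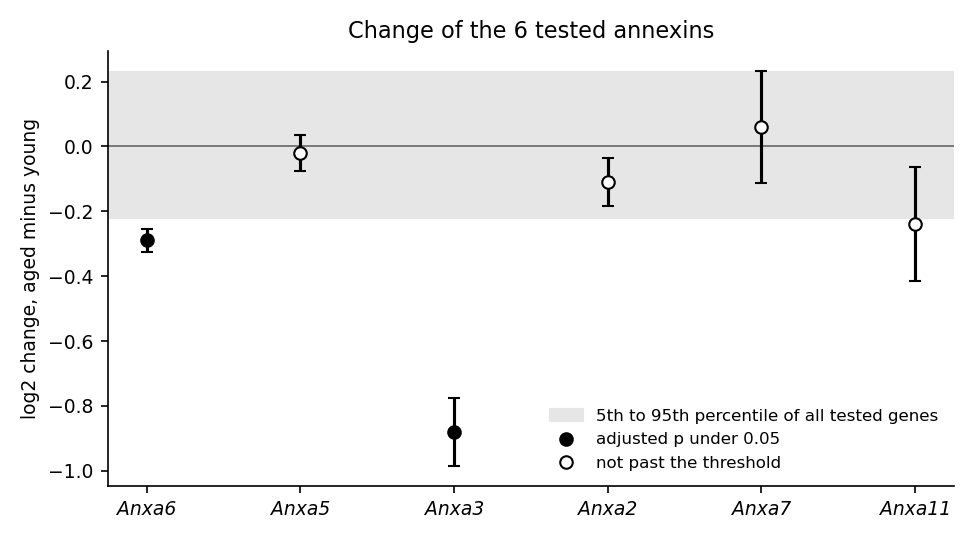
Log2 change of FPKM + 1, aged minus young, for the 6 annexins that entered the fit, with bars of 1 SE (n = 3 per age). Filled points passed an adjusted p under 0.05 (Anxa3 at -0.88 and Anxa6 at -0.29), and the grey band holds the 5th to 95th percentile of all tested genes, -0.22 to 0.23.

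Anxa5 (gene 11747, chr3:36448923-36475887, minus strand), which binds exposed phosphatidylserine and is the probe used to stain dying cells, did not pass. It was at 32.06, 29.70 and 33.60 FPKM in aged libraries, against 32.24, 31.34 and 32.90 FPKM in young libraries, so the young values lay inside the aged range. The log2 change of -0.02 ± 0.055 (SE) had a limma adjusted p of 0.939. About 292.7 reads per aged and 302.5 per young library stood behind these values, a depth like that of Anxa3 in young cells.

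Anxa2 (gene 12306, chr9:69453683-69491792, plus strand) pairs with S100a10 and binds plasminogen and its activator Plat at the cell surface. It was at 16.97, 15.17 and 15.65 FPKM in aged libraries, against 16.08, 19.00 and 16.90 FPKM in young libraries. The groups overlapped, and the log2 change of -0.11 ± 0.075 (SE) did not pass (limma adjusted p = 0.638).

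Anxa7 (gene 11750, chr14:20455261-20480133, minus strand), also called synexin, was named for its aggregation of secretory granules and binds sorcin. It was at 1.37, 1.44 and 2.33 FPKM in aged libraries and at 1.59, 1.27 and 1.91 FPKM in young libraries, about 19.7 to 35.6 reads. The log2 change of 0.06 ± 0.174 (SE) did not pass (limma adjusted p = 0.939). Anxa11 (gene 11744, chr14:25842127-25886804, plus strand) tethers RNA granules to lysosomes in neurons and is mutated in some human motor neuron disease. It was at 0.85, 0.70 and 1.07 FPKM in aged libraries and at 1.58, 0.83 and 1.28 FPKM in young libraries, about 8.9 to 20.5 reads. The log2 change of -0.24 ± 0.176 (SE) did not pass (limma adjusted p = 0.669). With SEs of 0.174 and 0.176, a change of the size seen for Anxa6 (-0.29) could be missed in either gene. The size of change that could be detected was not tested.

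Anxa4 (gene 11746, chr6:86736840-86793634, minus strand), described in epithelia and at sites of membrane repair, lay under the 1 FPKM filter. It was at 0.65, 0.28 and 0.09 FPKM in aged libraries and at 1.09, 0.27 and 0.46 FPKM in young libraries, or about 1.0 to 11.9 reads, with overlapping groups. Anxa1 (gene 16952, chr19:20373434-20390671, minus strand) is a glucocorticoid-induced mediator that dampens inflammation through formyl peptide receptors. It was listed at 0, 0 and 0.13 FPKM in aged libraries and at 0.13, 0 and 0 FPKM in young libraries. The value of 0.13 FPKM is about 1.2 reads, so Anxa1 was at the floor of detection in both ages. The tables also held the related genes Anxa9, at 0.59 to 1.10 FPKM in aged and 0.58 to 1.27 FPKM in young libraries, and Anxa8, at 0 to 0.10 FPKM in both. Anxa10 and Anxa13 were looked up by symbol and not found among the listed genes.

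The falls of Anxa3 and Anxa6 lowered the annexin total. The summed FPKM of the 8 members was 127.03, 115.08 and 125.78 in aged libraries, against 151.15, 153.73 and 153.22 in young libraries. The mean difference, aged minus young, was -30.1 FPKM, of which Anxa3 and Anxa6 hold most. Anxa3 made up 14.8% ± 1.76 of the total in aged and 22.2% ± 0.872 in young libraries (SD, n = 3 each). Anxa6 kept its share, at 43.9% ± 1.68 in aged and 43.1% ± 0.529 in young libraries, since the total fell with it. Anxa5 made up 25.9% ± 0.755 in aged and 21.1% ± 0.586 in young libraries while its level overlapped between the ages.

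**Figure D3:**
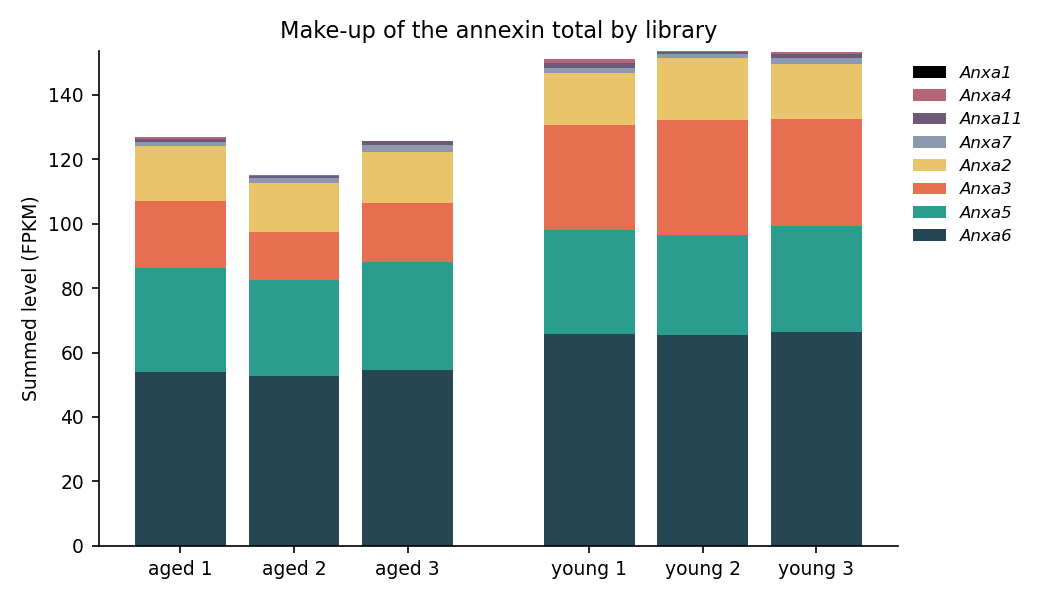
Stacked FPKM of the 8 annexins in each of the 3 aged and 3 young libraries, in order of mean level from the bottom. The aged columns end at 115.08 to 127.03 FPKM and the young columns at 151.15 to 153.73 FPKM, and the Anxa3 segment is the one that shrinks most.

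Ratios within a library do not depend on its scaling. Anxa3 stood to Anxa5 at 0.657, 0.506 and 0.548 in aged libraries, against 1.01, 1.14 and 1.02 in young libraries. Anxa6 stood to Anxa5 at 1.69, 1.78 and 1.62 in aged libraries, against 2.04, 2.08 and 2.02 in young libraries. The ratio of Anxa3 to Anxa6 was 0.389, 0.285 and 0.338 in aged libraries, against 0.496, 0.547 and 0.504 in young libraries. In each of these ratios the groups did not overlap. The members were chosen partly by their difference between the ages, so these ratios restate the changes given above and add no separate evidence. How often ratios of other gene pairs separate was not tested.

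The genes whose pattern over the 6 libraries lay nearest to that of Anxa3 were Hlx, Grb10, 9330188P03Rik, Kcnc4 and Sulf1. Nearness was the root mean square difference of log2(FPKM + 1) after centring each gene on its mean, which was 0.128 for Hlx and 0.174 for Sulf1. All 5 were lower in aged than in young libraries without overlap, which the measure selects for. Hlx, a homeobox gene, averaged 4.72 ± 0.207 FPKM in aged and 9.04 ± 1.15 FPKM in young libraries. Grb10, an imprinted adaptor of insulin receptor signalling, averaged 0.583 ± 0.0802 and 1.67 ± 0.306 FPKM in aged and in young libraries and did not pass (limma adjusted p = 0.0743). 9330188P03Rik averaged 8.99 ± 1.16 and 19.7 ± 4.13 FPKM, the potassium channel gene Kcnc4 7.14 ± 0.416 and 11.6 ± 1.05 FPKM, and the heparan sulfate sulfatase Sulf1 3.97 ± 0.235 and 7.05 ± 0.755 FPKM, aged before young (SD, n = 3 each). Among the annexins the nearest to Anxa3 was Anxa6, at 0.323, with 132 genes nearer.

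**Figure D4:**
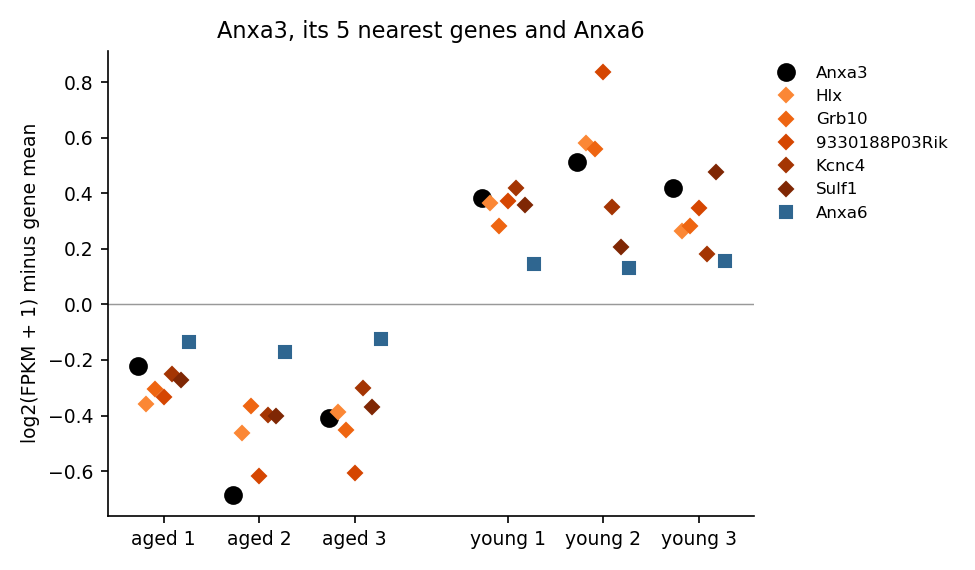
Log2(FPKM + 1) minus the gene's mean over 6 libraries for Anxa3 (black circles), its 5 nearest genes (orange to brown diamonds) and Anxa6 (blue squares), in aged and young libraries. Anxa3 and its nearest genes spread between libraries of an age, and the Anxa6 points stay close together within each age.

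Genes that work with the annexins were examined in 8 lists. Of the 62 genes of these lists with values given here, 50 entered the fit. By limma 0 fell, 0 rose and 50 did not pass, against 0.722% called over all tested genes. The median log2 change was -0.05 over these 50 genes and 0.003 over all tested genes. Without adjustment, 11 of the 50 had a limma p under 0.05, a share to be read beside 11.8% of all tested genes. These 11 were 3 S100 genes, 3 of membrane repair, 2 of the plasminogen system and 1 in each of the calcium-binding partners, copines and RNA granule genes, with 0 in the phosphatidylserine and calcium-dependent binder lists.

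Of the 8 genes tested in the list of C2-domain and other calcium-dependent membrane binders 0 passed (median log2 change -0.04). The calmodulin gene Calm2, a calcium sensor, averaged 413 ± 9.76 FPKM in aged and 426 ± 6.70 FPKM in young libraries (SD, n = 3 each), with overlapping groups. The protein kinase C gene Prkcb averaged 59.5 and 61.7 FPKM and the phospholipase Pla2g4a 0.980 and 1.32 FPKM in aged and in young libraries.

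S100 proteins are small dimers, most of them calcium-binding, and several hold pairs of annexins together. Of 8 listed genes 6 were tested and 0 passed (median log2 change 0.08). S100a10, the partner of Anxa2, was at 157.78, 140.92 and 149.77 FPKM in aged and at 148.93, 143.44 and 144.40 FPKM in young libraries, many times the level of Anxa2. S100a11, the partner of Anxa1, was at 35.48 to 40.47 FPKM in aged and 35.95 to 42.91 FPKM in young libraries, where Anxa1 itself was at the floor. S100a16 was at 113 ± 5.35 FPKM in aged and 98.7 ± 2.42 FPKM in young libraries without overlap (SD, n = 3 each), with a limma adjusted p of 0.0985. S100a1 was at 12.58 to 15.93 FPKM in aged and 6.82 to 13.29 FPKM in young libraries, and S100a13 at 7.85 to 9.47 FPKM in aged and 9.27 to 11.35 FPKM in young libraries. S100a6, a partner of Anxa11, lay at 0.27 to 0.54 FPKM in aged and 0.26 to 1.31 FPKM in young libraries, and S100a4 at 0.76 to 1.55 FPKM in aged and 0.38 to 0.75 FPKM in young libraries, which is at most 4.1 reads for S100a4.

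The other calcium-binding partners, sorcin (Sri), Pdcd6, Pdcd6ip and Gca, did not pass (0 of 4, median log2 change -0.09). Sri was at 31.3 and 30.4 FPKM, Pdcd6ip at 23.1 and 25.7 FPKM and Gca at 1.67 and 2.11 FPKM in aged and in young libraries. Of the plasminogen system, to which Anxa2 contributes, 3 of 6 genes were tested and 0 passed (median -0.08). The activator Plat averaged 172 and 183 FPKM, the protease inhibitor Serpine2 779 and 812 FPKM and the urokinase Plau 1.19 and 1.53 FPKM in aged and in young libraries.

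For plasma membrane repair 7 of 11 genes were tested and 0 passed (median log2 change -0.09). Cavin1, a caveolar coat gene listed as Ptrf, averaged 16.8 and 20.1 FPKM in aged and in young libraries (limma adjusted p = 0.242). The calpain Capn2 averaged 34.8 and 38.2 FPKM and the ESCRT ATPase Vps4a 39.1 and 36.1 FPKM. Dysf, the dysferlin gene, averaged 0.247 and 0.290 FPKM and Myof 0.227 and 0.213 FPKM, under the filter.

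Phosphatidylserine is one of the acidic phospholipids that annexins bind. Of 10 genes for its synthesis, breakdown, exposure and transport 0 passed (median log2 change -0.02). Pisd, whose enzyme uses it up, was at 47.4 and 44.5 FPKM in aged and in young libraries. The flippase Atp11a was at 25.5 and 27.6 FPKM and the synthase Ptdss2 at 31.2 and 29.4 FPKM, aged before young. Copines are another family of calcium-dependent phospholipid binders. Of 5 tested copines 0 passed (median -0.11), with Cpne2 at 72.7 and 78.8 FPKM, Cpne1 at 17.8 and 19.2 FPKM and Cpne7 at 4.71 and 5.41 FPKM. Of 7 genes of RNA granules and lysosomes, which Anxa11 links, 0 passed (median -0.04), with Lamp1 at 217 and 231 FPKM, Tia1 at 23.6 and 25.0 FPKM and G3bp2 at 41.6 and 43.9 FPKM in aged and in young libraries. The formyl peptide receptor genes Fpr1, Fpr2 and Fpr3 were looked up by symbol and not found among the listed genes.

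**Figure D5:**
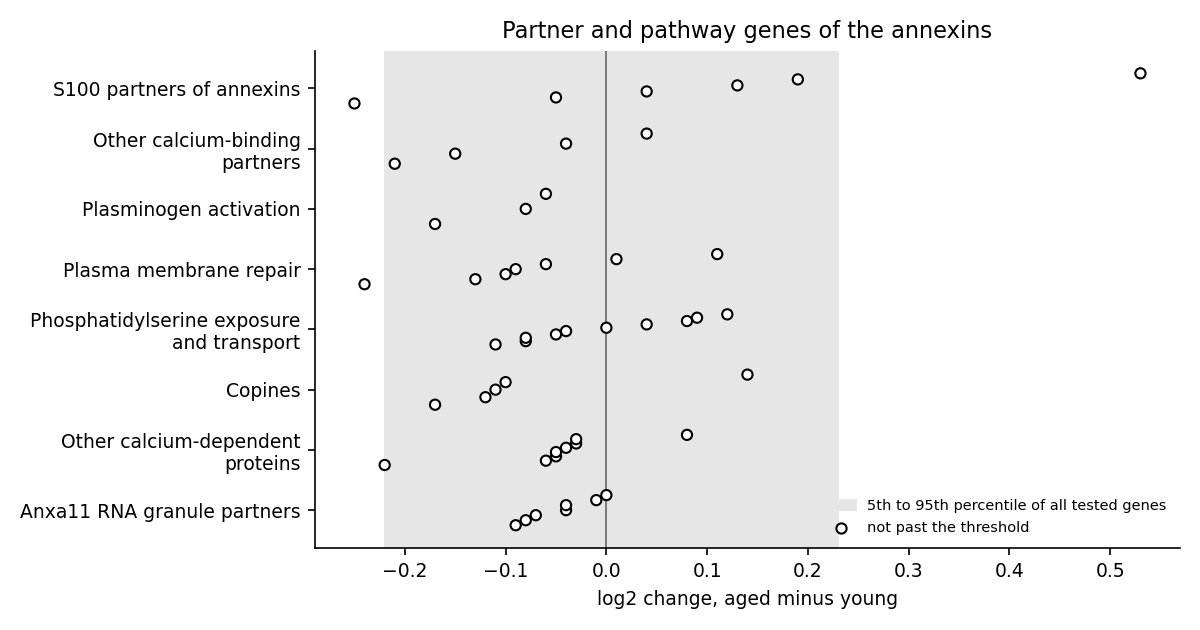
Log2 change of FPKM + 1, aged minus young, for the tested genes of 8 partner lists, 1 point per gene. The open points did not pass an adjusted p under 0.05, and the grey band holds the 5th to 95th percentile of all tested genes, -0.22 to 0.23.

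Markers of other cells of the region were summed by cell type over those with values. Aif1, Csf1r and Tmem119 of microglia, Cdh5 of endothelium, Lum of fibroblasts and Ttr of choroid plexus were not found among the listed genes. The summed level of 5 microglial and macrophage markers was 3.16 to 3.54 FPKM in aged and 3.07 to 4.23 FPKM in young libraries. Cd68 held most of this sum. Ptprc was at 0 in all 3 young libraries and at no more than 1.0 read in aged ones. For 6 endothelial markers the sum was 3.51 to 3.71 FPKM in aged and 2.52 to 4.16 FPKM in young libraries. Egfl7 was higher and Flt1 lower in aged libraries without overlap. Cldn5 was at 0 in all 3 aged libraries and at no more than 3.0 reads in young ones. For 7 fibroblast and pericyte markers the sum was 3.11 to 4.08 FPKM in aged and 0.93 to 1.16 FPKM in young libraries. Col1a1, Col1a2 and Col3a1 were higher in aged libraries without overlap, Col3a1 at no more than 4.8 reads. Dcn and Rgs5 were at 0 in all 3 aged libraries and Pdgfrb in all 3 young ones. The highest library held 1.0 read for Dcn, 2.2 for Rgs5 and 0.9 for Pdgfrb, so these genes were at the floor in both ages. The collagen gene Col1a1 rose, at 2.04, 2.53 and 2.81 FPKM in aged libraries against 0.54, 0.31 and 0.42 FPKM in young libraries, with a log2 change of 1.28 (limma adjusted p = 0.0107), and was the only marker of the 7 lists that passed. For 6 oligodendrocyte markers the sum was 2.85 to 3.19 FPKM in aged and 3.73 to 4.35 FPKM in young libraries. Opalin was at 0 in all 3 aged libraries and at no more than 6.3 reads in young ones. Mbp was lower in aged libraries without overlap, at no more than 10.9 reads in any library. For 5 ependymal and choroid plexus markers the sum, mostly Foxj1 and Enpp2, was 24.46 to 28.22 FPKM in aged and 21.17 to 25.94 FPKM in young libraries. Kcnj13 was at 0 in all 3 aged libraries and at no more than 1.0 read in young ones. For 6 neuronal markers the sum was 138.92 to 146.22 FPKM in aged and 141.77 to 145.36 FPKM in young libraries. Map2 held most of the neuronal sum, at 119.97 to 127.02 FPKM in aged and 129.00 to 131.12 FPKM in young libraries. Dcx, Rbfox3 and Syt1 were each under 1 FPKM in every library. Among the ependymal and neuronal markers, Enpp2, Dcx, Snap25 and Tubb3 were higher and Map2 lower in aged libraries without overlap. Of the progenitor markers, Sox2 and Slc1a3 were higher and Nes and Vim lower in aged libraries without overlap. The part of these markers in the changes of Anxa3 and Anxa6 was not tested.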

How the data were processed

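Per the labels' protocols, rRNA was removed from total RNA and an MGIEasy kit was used to prepare the 6 libraries. The authors deposited 1 FPKM value per gene and library, with 2 decimals, per the file headers. The submitters' processing notes list TopHat, Cuffdiff and mm10, and the normalization between libraries is not given in the sources used here. FPKM are not counts, so no count test was used. Aged and young libraries were compared with limma 3.58.1 (R 4.3.3), using eBayes and its intensity trend, fitted to log2(FPKM + 1) in the 3 aged and 3 young libraries without covariates. It took in 11912 genes whose mean over the libraries reached 1 FPKM. Tests were two-sided, p-values were adjusted by Benjamini-Hochberg across these genes, and 0.05 was the threshold. The test was checked on simulated data with the same added spread for every gene, which cannot check its reliance on the trend. The pseudocount understates changes of low genes.

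Estimated reads are FPKM times transcript length (GENCODE vM21, matched by RefSeq accession) over the value of 1 read in that library. Among values of 3.5 to 10.5 estimated reads, 57.8% to 64.7% were whole to within 0.15, where chance gives 30%. They are approximate, and percentages of sampling spread cover counting error only. Gene positions are from RefSeq on GRCm38.p6 (mm10), where 16962 of the 17006 gene identifiers were found. Coding sequences were aligned with Biopython 1.88. Python 3.11.15 was used with matplotlib 3.10.9, numpy 2.4.6 and pandas 2.3.3.

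The members, partner lists and markers were chosen with earlier results of these data known. A partner gene and a progenitor marker of these lists are not reported here and are left out of their lists' counts and sums, while the fit over all genes includes them. Named genes are all members, other annexins with values, each called partner and up to 3 further partners per list with the smallest p, and the 5 genes nearest Anxa3. Further genes of these lists (S100a10, S100a11, S100a6, S100a4, Pdcd6, Dysf and Myof) were named for their tie to a member after their values were seen. Alternatives covered the pseudocount, the filter, 3 scalings, limma's options, a replicate block and each library left out in turn.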

Additional observations from a re-analysis of the deposited data

How the results depend on the processing

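Of 86 genes called among all tested, 11 were called by limma without its trend and 22 when a replicate block was added. With 1 library left out, 39 to 70 genes were called. Of the 2 annexins called, 0 passed without the trend and 0 with the replicate block, and 1 to 2 passed with 1 library left out. In the other 9 alternatives both Anxa3 and Anxa6 passed. Anxa3 kept a log2 change of -0.877 without the trend (adjusted p = 0.0807) and with the block (0.0607), and -0.985 to -0.754 with 1 library left out. Anxa6 kept -0.287 without the trend (0.0818) and with the block (0.0668), and -0.296 to -0.273 with 1 library left out. Of the partner genes reported, limma called 0 in every alternative and 0 with 1 library left out. The labels do not say whether replicate numbers pair the samples. Libraries of the same number had deviations correlated at 0.008, -0.072 and 0.108. With 3 libraries per age these values cannot settle whether libraries were handled together. The sign of 2 members that did not pass depended on a library, Anxa5 at -0.058 to 0.029 and Anxa7 at -0.10 to 0.146 with 1 library left out. Neighbours in the level order over all 6 libraries overlapped in 5 of 7 pairs, and in 4 to 5 with 1 library left out. Anxa2 and Anxa11 were lower in aged libraries in every alternative and passed in none. With a mean of at least 5 FPKM required, Anxa7 and Anxa11 were not tested. Why a call was lost was not tested. With no filter, Anxa4 had a log2 change of -0.25 ± 0.217 (SE, limma adjusted p = 0.780), and depth limits Anxa1, Anxa4, Anxa7 and Anxa11 most.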
